A study of Homo sapiens with 4 samples.

Results

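The genes described here are 39 genes of glycolysis and of the response to low oxygen, taken from a list of 40 by gene symbol out of 17902 genes in the deposited table. They were measured by RNA sequencing in LNCaP, a human prostate cancer cell line derived from a lymph node metastasis. There were 2 libraries of LNCaP cells overexpressing ETV5 (ETV5_OE), an ETS-family transcription factor, and 2 libraries of LNCaP cells labelled wild type (Control). All 4 libraries share the cell line and the RNA and library protocol. The labels give no vector, promoter, clone, culture time or medium for either group and do not say what separates the 2 libraries of a group, so the p-values below cover nothing beyond the spread among the 4 libraries, and that spread may be technical. ADM, which encodes the secreted vasodilator peptide adrenomedullin, is the remaining gene of the list and was not analysed here. All 39 genes passed the filter on low counts and were tested.

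Glycolysis breaks glucose down to pyruvate in the cytosol, and lactate dehydrogenase turns pyruvate into lactate where it is not passed to the mitochondria. When oxygen is low, the prolyl hydroxylases that mark the HIF-1 alpha and HIF-2 alpha proteins for destruction lose activity, and the stabilised factors bind DNA with their partner ARNT and raise many glycolytic genes, glucose carriers, VEGFA and the hydroxylases themselves. HIF-1 alpha is set largely at the protein level, so its activity is usually read from its target genes. The same target genes also respond to cell density, nutrient supply and growth in culture. LNCaP cells are often described as relying on mitochondrial oxidation more than many other carcinoma cells do, which was not measured here.

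Control 2 was the lowest of the 4 libraries for 31 of the 39 genes. Control 1 was the highest for 17, and in 14 genes both ETV5_OE libraries lay between the controls. Control 1 and both ETV5_OE libraries lay close together in the median over the genes, though not gene by gene. Set against its own mean over the 4 libraries, the median gene stood at 0.10 and 0.06 (log2) in ETV5_OE 1 and 2, and at 0.14 and -0.30 in Control 1 and 2. Between the groups no gene passed the test, although 11 of 16 glycolytic enzymes had normalised counts in both ETV5_OE libraries that exceeded those of each control library, by small amounts (18.8% of all genes tested did so). Per transcript length, in deposited FPKM, the groups overlapped for LDHA and GPI, which are among these enzymes. The cell surface carbonic anhydrase CA12 and the phosphofructokinase PFKL had higher values in ETV5_OE, and their fold changes moved little whichever library was left out. The glucose carrier SLC2A3 stood lower in ETV5_OE, from few counts.

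The DNA motif read by the HIF factors has the core ACGTG or GCGTG. The 250 bases before the RefSeq start (GRCh38.p14) of 4 genes are shown because the results turn on them: LDHA, DDIT4 and ANKRD37 passed the test when Control 1 was left out, and CA12 had the smallest p of the genes that were higher in ETV5_OE. Capitals mark ACGTG and GCGTG on either strand, so also CACGT and CACGC, and the palindrome CACGTG holds ACGTG on both strands. LDHA lies at chr11:18394313-18394562 (plus strand), DDIT4 at chr10:72273674-72273923 (plus strand), ANKRD37 at chr4:185396591-185396840 (plus strand) and CA12 at chr15:63381847-63382096 (minus strand), each written 5′ to 3′ along its gene.
LDHA: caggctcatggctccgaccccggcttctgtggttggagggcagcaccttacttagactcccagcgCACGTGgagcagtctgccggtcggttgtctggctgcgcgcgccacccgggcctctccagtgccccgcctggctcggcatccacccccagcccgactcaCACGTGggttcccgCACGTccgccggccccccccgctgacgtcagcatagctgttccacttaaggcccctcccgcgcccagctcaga
DDIT4: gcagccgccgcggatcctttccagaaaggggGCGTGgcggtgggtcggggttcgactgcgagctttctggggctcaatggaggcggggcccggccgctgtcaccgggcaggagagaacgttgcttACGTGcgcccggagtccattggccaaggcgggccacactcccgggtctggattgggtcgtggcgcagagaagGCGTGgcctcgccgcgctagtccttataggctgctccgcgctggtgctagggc
ANKRD37: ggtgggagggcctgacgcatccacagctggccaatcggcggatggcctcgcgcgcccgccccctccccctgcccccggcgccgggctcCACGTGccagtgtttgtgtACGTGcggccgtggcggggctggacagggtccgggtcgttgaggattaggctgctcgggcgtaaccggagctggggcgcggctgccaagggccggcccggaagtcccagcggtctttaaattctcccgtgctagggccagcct
CA12: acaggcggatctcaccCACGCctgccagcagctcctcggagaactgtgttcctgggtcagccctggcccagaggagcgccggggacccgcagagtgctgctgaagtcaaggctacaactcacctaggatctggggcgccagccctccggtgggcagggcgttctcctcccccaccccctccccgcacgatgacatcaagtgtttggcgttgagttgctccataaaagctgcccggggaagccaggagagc
The LDHA window held 5 matches, those of DDIT4 and ANKRD37 3 each, and that of CA12 1. Windows were available for 33 of the 39 genes. SLC2A3, SLC16A1, PFKFB2, BNIP3L, VEGFA and HILPDA had none in the table used. ACGTG was in 14 of the 33 windows (42.4%), against 23.1% of the 11753 windows of genes tested, and GCGTG in 13 (39.4%), against 44.9%. Either core was in 20 windows (60.6%), against 56.7%. BNIP3 held 6 matches and ALDOC 5. The windows of PDK1, SLC16A3, TPI1, EGLN3, HK1, LDHB, MXI1, P4HA2, PFKM, PFKP, PGAM1, PKM and SLC2A1 held none. Only 1 window per gene was searched, so other starts may hold matches. The windows of SLC16A3, GPI, PFKFB4, KDM3A, PGAM1, GAPDH, PFKM, PFKP, PKM and P4HA2 lie inside the gene, and that of TPI1 lies partly inside. The 39 genes were listed for glycolysis and hypoxia, so these shares describe the list and say nothing about the libraries. A match is a run of letters in this window and not a measured binding site.

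Before the results, some facts bear on all of them. Total counts were 22369062 and 24642392 in the ETV5_OE libraries and 30227070 and 20639543 in the control libraries, and the table holds only genes with 1 read or more in all of them. ETV5 had 534 and 522 counts in the ETV5_OE libraries, against 22 and 27 in the control libraries. All 8 luminal prostate markers checked were present, with KLK3, which encodes prostate-specific antigen, at 2105 and 2396 CPM (counts of a gene scaled to a common library size) in ETV5_OE and 3427 and 3732 CPM in Control. Control 2 stood apart in growth genes: it was the lowest library for all 9 proliferation genes, whose summed level was 1185 and 961 CPM in ETV5_OE and 1204 and 544 CPM in Control 1 and Control 2. Of 5 fibroblast markers 3 were measured, with summed levels of 83.9 and 11.1 CPM in ETV5_OE 1 and 2, against 10.5 and 12.1 CPM in Control 1 and 2. DCN, LUM, PECAM1, CDH5, PTPRC and CD3E were not analysed here, so of 3 endothelial and 3 immune markers only VWF and CD68 were measured. VWF had 7.98 and 5.43 CPM in ETV5_OE and 14.0 and 4.01 CPM in Control 1 and 2. CD68 had 9.10 and 16.9 CPM in ETV5_OE and 5.71 and 8.45 CPM in Control. In RNA from whole cultures, fewer cells of a state and less RNA per cell cannot be told apart.

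The comparison of ETV5_OE with Control asks which genes differ when this factor is raised. Of the 39 genes, 0 passed at an edgeR adjusted p under 0.05, where 0.401% of the 16194 genes tested did. DESeq2 called 1, SLC2A3, and limma-voom 0. At an unadjusted p under 0.05 with edgeR, 5 were higher (12.8%; 3.63% of all genes tested), CA12, ERO1A, PFKL, ENO1 and TPI1, and 1 was lower (2.56%; 3.51% of all genes tested), SLC2A3. The median log2 fold change was 0.19 over the 39 genes and 0.00 over all genes tested. In 26 of the 39 it was above 0 (66.7%; 50.6% of all genes tested). In CPM, 14 genes had both ETV5_OE libraries above both controls (35.9%; 18.8% of all genes tested), and 1 had both below (2.56%; 18.8% of all genes tested).

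**Figure D1:**
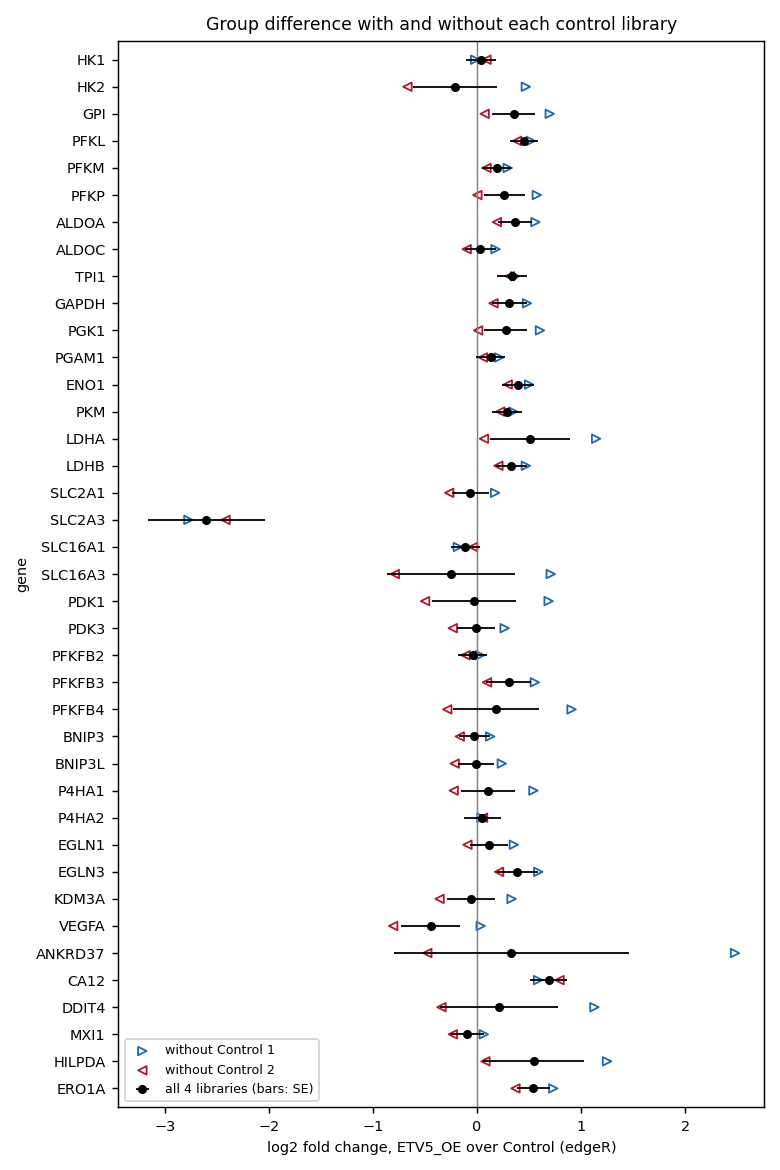
Log2 fold change of ETV5_OE over Control for the 39 genes (x axis) with all 4 libraries (black points, bars are the edgeR SE) and without Control 1 or Control 2 (open triangles). For CA12, PFKL and TPI1 the 3 values lie close together, while for LDHA they are 0.51, 1.14 and 0.066, and for ANKRD37, DDIT4, HK2 and PDK1 the triangles fall on opposite sides of 0.

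Among the 16 glycolytic enzymes the log2 fold changes ran from -0.21 for HK2 to 0.51 for LDHA, with a median of 0.30, and 15 were above 0. The median was 0.47 without Control 1 and 0.09 without Control 2, when 15 and 14 of the 16 were above 0. In CPM both ETV5_OE libraries were above both controls in 11 of the 16, against 18.8% of all genes tested. None passed (edgeR adjusted p from 0.410 to 0.988). PFKL, the liver-type subunit of phosphofructokinase, which commits sugar to glycolysis (chromosome 21, 44300053 to 44327373), had 211 and 203 CPM in ETV5_OE, against 159 and 145 CPM in Control. Its groups were apart, with a log2 fold change of 0.45 (SE 0.13, adjusted p = 0.410). ENO1, the enolase of most tissues, had 1544 and 1447 CPM in ETV5_OE and 1219 and 1058 CPM in Control (log2 fold change 0.39, SE 0.15, adjusted p = 0.604). TPI1, the triose phosphate isomerase, had 678 and 590.2 CPM in ETV5_OE and 510.2 and 492 CPM in Control (0.34, SE 0.14, adjusted p = 0.688). For both enzymes the lower ETV5_OE library was above the higher control.

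ALDOA, LDHB and LDHA also had both ETV5_OE libraries above both controls in CPM. ALDOA, the main aldolase, had 786 and 764 CPM in ETV5_OE and 679 and 526 CPM in Control. LDHB, the lactate dehydrogenase subunit common in oxidative tissue, had 467 and 453 CPM in ETV5_OE and 399 and 333 CPM in Control. LDHA, the subunit common in tissue that makes lactate (chromosome 11, 18394563 to 18408425), had 248 and 236 CPM in ETV5_OE, against 231 and 109 CPM in Control 1 and 2. Control 1 was close to both ETV5_OE libraries, and Control 2 alone was low. In deposited FPKM the LDHA groups overlapped, with 113 and 107 in ETV5_OE and 110 and 49.7 in Control 1 and 2. The LDHA log2 fold change was 0.51 (SE 0.38, adjusted p = 0.887) with all libraries, 1.14 without Control 1 (adjusted p = 0.0146) and 0.066 without Control 2 (adjusted p = 0.967).

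GAPDH, PKM, GPI, PFKM and PGAM1 also had both ETV5_OE libraries above both controls in CPM, with log2 fold changes from 0.13 to 0.35. GPI, which isomerises glucose phosphate, had 449 and 453 CPM in ETV5_OE and 429 and 278 CPM in Control 1 and 2. In deposited FPKM the GPI groups overlapped, with 103 and 75.8 in ETV5_OE and 99.7 and 48.6 in Control 1 and 2. In CPM the groups overlapped for HK1, HK2, PFKP, ALDOC and PGK1. HK2, the hexokinase induced in many tumours, had 59.9 and 55.1 CPM in ETV5_OE, inside the control values of 91.4 and 41.6 CPM (log2 fold change -0.21, SE 0.41, adjusted p = 0.960). HK1, the hexokinase of most tissues, had 143 and 122 CPM in ETV5_OE and 125 and 134 CPM in Control. It was the single glycolytic enzyme for which Control 2 was not the lowest library. Per transcript length, in deposited FPKM, GAPDH was the most abundant of the 39 genes, with 1434 and 1596 in ETV5_OE and 1398 and 1118 in Control. ENO1 followed with 814 and 737 FPKM in ETV5_OE and 646 and 561 FPKM in Control. HK1 averaged 34.8 FPKM over the 4 libraries and HK2 8.49 FPKM, and the HK1 values lay above those of HK2 in each library. Several of these enzymes have many processed pseudogenes, so their counts depend on how shared reads were assigned.

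The 4 carriers did not follow the enzymes. SLC2A3 encodes GLUT3, a high-affinity glucose carrier (chromosome 12, 7919230 to 7936187). It had 6 and 10 counts in ETV5_OE, against 57 and 50 in Control, or 0.269 and 0.417 CPM against 1.86 and 2.39 CPM. The groups were apart, with a log2 fold change of -2.60 (SE 0.56, edgeR adjusted p = 0.163; DESeq2 adjusted p = 0.0220). In the authors' deposited table its fold is -1.41 with an unadjusted p of 0.0343, where a minus sign marks Control as higher and the group means sit on a log2(FPKM + 1) scale, which understates the change of low genes. SLC2A3 shares nearly identical sequence with SLC2A14, so its counts are uncertain. SLC2A1, which encodes GLUT1, the carrier of most cells, had 55.9 and 58.4 CPM in ETV5_OE and 68.8 and 50.7 CPM in Control (log2 fold change -0.07, SE 0.18, adjusted p = 0.972).

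The lactate carriers stood at very different levels. SLC16A1, which encodes MCT1, had 281 and 265 CPM in ETV5_OE and 280.4 and 311 CPM in Control (log2 fold change -0.11, SE 0.14, adjusted p = 0.936). SLC16A3, which encodes the lactate exporter MCT4, had 1.031 and 1.002 CPM in ETV5_OE, between the 1.76 and 0.620 CPM of Control 1 and 2 (log2 fold change -0.25, SE 0.61, adjusted p = 0.969). Per transcript length SLC16A1 averaged 69.3 FPKM over the 4 libraries and SLC16A3 0.482 FPKM. GLUT1 averaged 16.6 FPKM and GLUT3 0.305 FPKM, so each pair had 1 abundant and 1 scarce member.

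Of the 5 regulatory kinases none had separate groups in CPM. PDK1 and PDK3 phosphorylate pyruvate dehydrogenase and so hold pyruvate back from the mitochondria. PDK1 had 32.1 and 31.0 CPM in ETV5_OE, between 44.6 CPM in Control 1 and 19.6 CPM in Control 2 (log2 fold change -0.03, SE 0.40, adjusted p = 0.994). PDK3 had 106 and 97.0 CPM in ETV5_OE, also between the controls at 119 and 84.3 CPM (adjusted p = 0.997). The PFKFB enzymes make the sugar bisphosphate that activates phosphofructokinase. PFKFB4 had 35.0 and 29.8 CPM in ETV5_OE and 39.5 and 17.3 CPM in Control (log2 fold change 0.19, SE 0.41, adjusted p = 0.966). PFKFB3 had 24.7 and 21.2 CPM in ETV5_OE and 21.5 and 15.6 CPM in Control (adjusted p = 0.866). PFKFB2, a form that androgen raises in LNCaP cells, had 71.7 and 77.4 CPM in ETV5_OE and 80.5 and 73.1 CPM in Control (adjusted p = 0.978), the narrowest range of the 39 genes at 1.12-fold.

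The mitophagy receptors BNIP3 and BNIP3L, which tag mitochondria for removal in low oxygen, had log2 fold changes of -0.03 and -0.01 (adjusted p = 0.989 and 0.997). BNIP3 had 268 and 283 CPM in ETV5_OE, between the 309 and 253 CPM of Control 1 and 2. BNIP3L had 229 and 248 CPM in ETV5_OE, between the controls at 277 and 202 CPM.

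Among the oxygen-dependent hydroxylases, EGLN3 was the 1 of 5 genes with separate groups in CPM. It encodes the HIF prolyl hydroxylase PHD3 and had 42.4 and 54.3 CPM in ETV5_OE and 41.8 and 32.2 CPM in Control (log2 fold change 0.39, SE 0.20, adjusted p = 0.782). In deposited FPKM its groups overlapped, with 15.02 and 18.87 in ETV5_OE and 15.22 and 11.67 in Control 1 and 2. EGLN1, the main HIF prolyl hydroxylase PHD2, had 52.2 and 51.4 CPM in ETV5_OE, within the control values of 55.2 and 40.6 CPM (adjusted p = 0.953). P4HA1, a collagen prolyl hydroxylase subunit, had 118 and 132 CPM in ETV5_OE and 146 and 85.9 CPM in Control (adjusted p = 0.969). Its paralog P4HA2 had 53.3 and 39.9 CPM in ETV5_OE and 44.8 and 45.3 CPM in Control (adjusted p = 0.980). The histone demethylase KDM3A had 34.6 and 35.9 CPM in ETV5_OE and 45.2 and 28.0 CPM in Control (adjusted p = 0.982).

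VEGFA, the growth factor of blood vessels (chromosome 6, 43770211 to 43786487), had 144 and 137 CPM in ETV5_OE, against 245 and 137 CPM in Control 1 and 2. Here Control 1 alone was high and Control 2 matched ETV5_OE. The log2 fold change was -0.45 (SE 0.28, adjusted p = 0.853), -0.81 without Control 2 (adjusted p = 0.0537) and 0.034 without Control 1 (adjusted p = 0.959).

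Of the remaining 6 hypoxia targets, CA12 and ERO1A had separate groups. CA12, a carbonic anhydrase of the cell surface that takes part in acid balance (chromosome 15, 63321378 to 63381846), had 36.5 and 41.8 CPM in ETV5_OE, against 22.6 and 26.1 CPM in Control. Its log2 fold change was 0.69 (SE 0.17, edgeR adjusted p = 0.282), and it ran from 0.58 to 0.79 with any 1 library left out. In the authors' deposited table the CA12 fold is 1.47 with an unadjusted p of 0.0515. Of the other genes under an unadjusted edgeR p of 0.05, PFKL had a deposited p of 0.101, TPI1 0.176, ERO1A 0.188 and ENO1 0.337. ERO1A, which oxidises protein disulfide isomerase in the endoplasmic reticulum (chromosome 14, 52639915 to 52695558), had 109 and 116 CPM in ETV5_OE, against 86.8 and 67.5 CPM in Control (log2 fold change 0.54, SE 0.16, adjusted p = 0.409). CA12 was the single gene of the 39 for which Control 1 was the lowest library.

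DDIT4, which encodes the mTORC1 inhibitor REDD1 and is also raised by energy and amino acid stress (chromosome 10, 72273924 to 72276036), had 561 and 524 CPM in ETV5_OE, between 687 CPM in Control 1 and 248 CPM in Control 2. ANKRD37, a small ankyrin-repeat protein gene known as a HIF-1 target (chromosome 4, 185396841 to 185400723), had 11.0 and 17.7 CPM in ETV5_OE, between 20.0 CPM in Control 1 and 2.58 CPM in Control 2. HILPDA, which inhibits fat breakdown at lipid droplets (chromosome 7, 128455878 to 128458418), had 42.0 and 25.8 CPM in ETV5_OE and 32.1 and 14.3 CPM in Control 1 and 2. None passed with all libraries, with adjusted p = 0.973 for DDIT4, 0.980 for ANKRD37 and 0.905 for HILPDA. The MYC antagonist MXI1 had 66.0 and 74.1 CPM in ETV5_OE and 82.3 and 66.998 CPM in Control (adjusted p = 0.959).

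**Figure D2:**
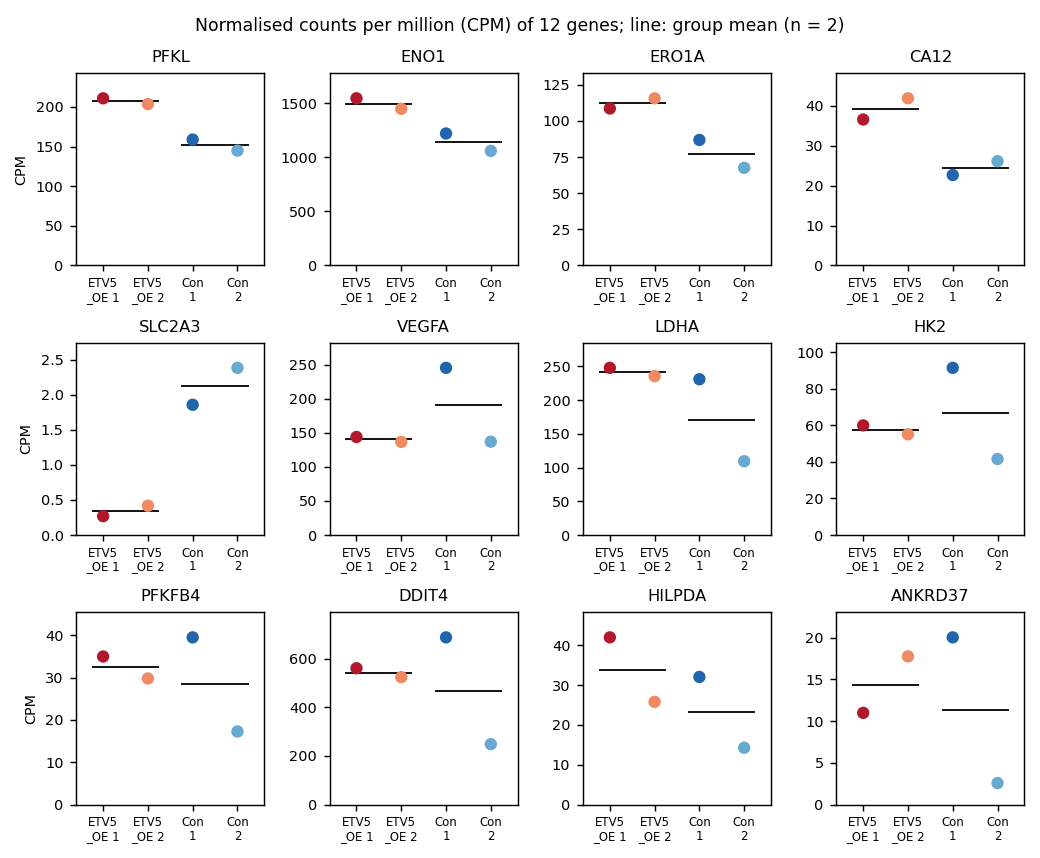
CPM (y axis, from 0) of 12 genes in each library (x axis), with a line at the mean of each group (n = 2). In the upper row the 2 ETV5_OE points lie above both controls, and for SLC2A3 they lie below both. The Control 2 point lies under the other 3 in PFKL, ENO1, ERO1A, LDHA, HK2, PFKFB4, DDIT4, HILPDA and ANKRD37.

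Library by library, the 39 genes had a common low point. Control 2 was the lowest library for 31 of them (79.5%), against 27.3% of all genes tested. ETV5_OE 1 was the lowest for 3 (25.9% of all genes tested), ETV5_OE 2 for 4 (21.6%) and Control 1 for 1 (25.3%). Control 1 was the highest library for 17 (43.6%; 23.8% of all genes tested). Of the 37 genes at a mean of 10 CPM or more, Control 2 was the lowest for 30 (27.1% of all genes at that level). By role, Control 2 was lowest for 15 of 16 glycolytic enzymes, 4 of 5 regulatory kinases, both mitophagy receptors, 4 of the 5 hydroxylase and demethylase genes, 4 of 6 other hypoxia targets and 2 of 4 carriers. The exceptions were HK1, SLC2A3, SLC16A1, PFKFB2, P4HA2, VEGFA, CA12 and MXI1. Summed over the 39 genes the level was 11117 and 11099 CPM in the ETV5_OE libraries, 10553 CPM in Control 1 and 8108 CPM in Control 2.

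**Figure D3:**
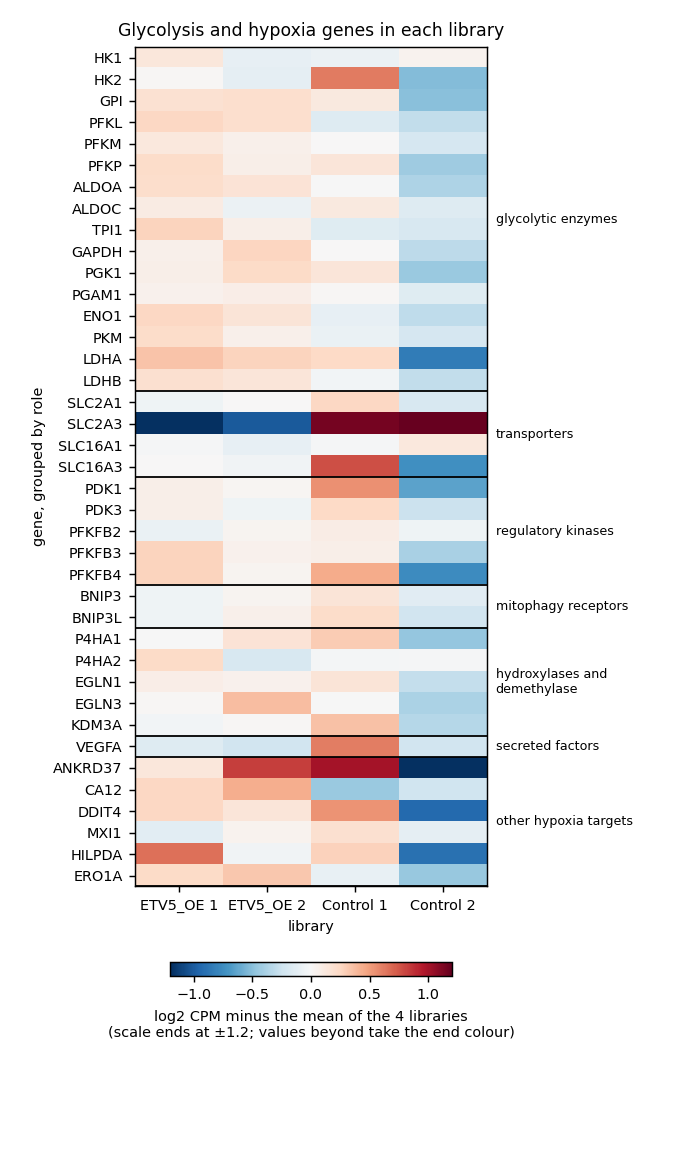
Log2 CPM of each gene (rows, by role) in each library (columns) minus its mean over the 4 libraries. The Control 2 column is the lowest for 31 of the 39 rows, and SLC2A3 is the row where both ETV5_OE libraries are low.

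Control 1 was above Control 2 in 34 of the 39 genes (87.2%), against 48.9% of all genes tested. The median log2 ratio of Control 1 over Control 2 was 0.38, or 1.30-fold, and -0.01 over all genes tested. In 8 genes Control 1 was at least 2-fold above Control 2 (20.5%; 5.65% of all genes tested), and in 0 was it 2-fold below (4.21%). Of the 37 genes at a mean of 10 CPM or more there were 7 at least 2-fold above (18.9%; 2.7% of all genes at that level). The 8 were ANKRD37 at 7.77-fold, SLC16A3 at 2.84-fold from 54 and 13 counts, DDIT4 at 2.77-fold, PFKFB4 at 2.29-fold, PDK1 at 2.28-fold, HILPDA at 2.25-fold, HK2 at 2.20-fold and LDHA at 2.11-fold. The 5 genes with Control 1 below Control 2 were HK1, SLC2A3, SLC16A1, P4HA2 and CA12. In 14 genes Control 1 was the highest and Control 2 the lowest library (35.9%; 8.9% of all genes tested), so that both ETV5_OE libraries lay between the controls. Since each library is 1 sample, the difference between 2 libraries of a group has no replicate and was not tested.

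The ETV5_OE libraries are named 50E-1 and 50E-1R in the deposited table, with a shared stem, and the Control libraries con-1R and con-2. Control 1 and ETV5_OE 2 share the R suffix, whose meaning is not given. Whether a shared stem marks repeat libraries of the same culture is not given, so the spreads within the 2 pairs may not be alike in kind. The median log2 ratio of ETV5_OE 1 over ETV5_OE 2 was 0.04 over the 39 genes, and 0 of them differed 2-fold or more, where 8.19% of all genes tested and 1.19% of those at a mean of 10 CPM or more did. The widest were HILPDA, 1.63-fold higher in ETV5_OE 1, SLC2A3 at 0.644 and ANKRD37 at 0.619 of the ETV5_OE 2 level.

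Over all 4 libraries the highest and lowest values were within 1.5-fold of each other for 20 of the 39 genes, against 55.2% of all genes tested and 76.9% of those at a mean of 10 CPM or more.

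**Figure D4:**
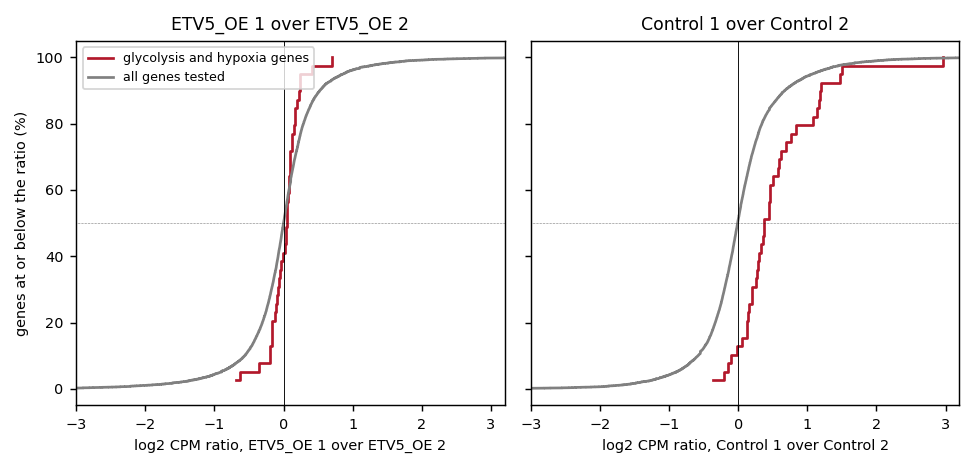
Cumulative share of genes (y axis, percent) at or below each log2 CPM ratio (x axis, drawn from -3 to 3.2) between the 2 libraries of ETV5_OE (left) and of Control (right), for the 39 genes and for all genes tested. On the left both curves cross 50% near 0, and on the right the curve of the 39 genes crosses 50% at 0.38.

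The group comparison differed with the control library used. Without Control 1, so against Control 2 alone, 3 of the 39 genes rose at an edgeR adjusted p under 0.05 (7.69%; 1.09% of all genes tested). They were LDHA (log2 fold change 1.14, adjusted p = 0.0146), DDIT4 (1.13, adjusted p = 0.0200) and ANKRD37 (2.48, adjusted p = 0.0212). At an unadjusted p under 0.05 there were 20 higher (51.3%; 6.61% of all genes tested) and 1 lower, SLC2A3 (4.23%), and no gene of the 39 was called lower (0.383%). The median log2 fold change was then 0.47. Without Control 2, so against Control 1 alone, 0 passed with edgeR (0.519% of all genes tested were called higher and 0.327% lower), and the median was 0.00. At an unadjusted p under 0.05, CA12, PFKL and ERO1A were higher (4.34% of all genes tested) and HK2, PDK1, SLC2A3 and VEGFA lower (3.53%). DESeq2 and limma-voom were not run without a library. In both fits the lone control is assumed to vary like the ETV5_OE pair. Without ETV5_OE 1, the library with the high collagen counts, the median was 0.15.

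Other genes of these pathways were taken from lists chosen by name. With edgeR on all 4 libraries 0 genes passed in any of the 8 lists that follow, while DESeq2 and limma-voom called 1, IGFBP3. Some genes of these lists depended on the control used. NDRG1, from the other HIF targets, had 108 and 110 CPM in ETV5_OE, below 191 CPM in Control 1 and above 70.8 CPM in Control 2. The proliferation genes CDK1, TOP2A and MKI67 and the amino acid stress gene ATF3 also had Control 2 as the lowest library. IGFBP3 was higher in ETV5_OE than in either control. At an unadjusted p under 0.05, 3.63% of all genes tested were higher and 3.51% lower, and the counts in each list stand beside those shares. The HIF machinery had 13 genes tested, with a median log2 fold change of 0.07, and 1 lower and 0 higher at an unadjusted p under 0.05. That was ARNT2, a HIF partner, with 8.25 and 6.30 CPM in ETV5_OE and 16.4 and 12.5 CPM in Control (log2 fold change -0.99, SE 0.26, adjusted p = 0.304). HIF1A had 159 and 180.3 CPM in ETV5_OE and 231 and 193 CPM in Control (log2 fold change -0.32, SE 0.15, adjusted p = 0.750). Control 2 was the lowest library for 4 of the 13, and their median log2 ratio of Control 1 over Control 2 was 0.04.

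Of the 24 other HIF targets tested, 1 was higher and 1 lower at an unadjusted p under 0.05, and the median was 0.03. IGFBP3, a secreted binder of insulin-like growth factors, had 109 and 108 CPM in ETV5_OE, against 2.05 and 7.54 CPM in Control. Its log2 fold change of 4.53 (SE 0.75) came with an edgeR adjusted p of 0.351. AK4, a mitochondrial adenylate kinase, had 176 and 166 CPM in ETV5_OE and 213 and 215 CPM in Control (log2 fold change -0.33, SE 0.13, adjusted p = 0.647). Control 1 was at least 2-fold above Control 2 in 6 of the 24. Control 2 was the lowest library for 11. PLOD2, a lysyl hydroxylase of collagen picked for its wide control pair, had 2.64 and 2.92 CPM in ETV5_OE, against 3.29 CPM in Control 1 and 0.239 CPM in Control 2.

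The 14 other glycolysis isozymes tested had a median of -0.11, with 1 lower and 0 higher at an unadjusted p under 0.05. ENO2, the neuronal enolase, had 10.9 and 9.60 CPM in ETV5_OE and 22.1 and 15.4 CPM in Control (log2 fold change -0.87, SE 0.24, adjusted p = 0.345), while ENO1 stood on the other side of 0. The 7 pentose phosphate genes had a median of 0.21, with 2 higher at an unadjusted p under 0.05. TKT, the transketolase of that pathway, had 459 and 521 CPM in ETV5_OE and 408 and 349 CPM in Control (adjusted p = 0.664). Control 2 was the lowest library for 2 of the 7.

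Of 9 other glucose and lactate carriers, 2 were higher and 1 lower at an unadjusted p under 0.05, with a median of 0.18. SLC2A12, which encodes the androgen-responsive glucose carrier GLUT12, had 44.9 and 51.4 CPM in ETV5_OE and 78.9 and 58.9 CPM in Control (log2 fold change -0.52, SE 0.18, adjusted p = 0.546). The 11 genes of pyruvate entry to mitochondria had a median of 0.02, with 0 under an unadjusted p of 0.05, and Control 2 was the lowest library for 7 of them.

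Genes of culture state also had Control 2 low, being the lowest library for 8 of the 11 amino acid stress genes and all 9 proliferation genes. For the 11 amino acid stress genes the median log2 ratio of Control 1 over Control 2 was 0.84, and for the 9 proliferation genes 1.17. These lists also differed within the ETV5_OE pair, with median log2 ratios of ETV5_OE 1 over ETV5_OE 2 of 0.36 and 0.35, against 0.04 for the 39 genes. Their median log2 fold changes between the groups were -0.03 and 0.40, with 0 under an unadjusted p of 0.05 in either list. The amino acid stress genes summed to 2371 and 2157 CPM in ETV5_OE and to 2913 and 1766 CPM in Control 1 and 2. TXNIP, which brakes glucose uptake and is raised when glucose products build up in the cell, had 15.6 and 69.4 CPM in ETV5_OE, 14.6 CPM in Control 1 and 520.3 CPM in Control 2. The part of culture state in the Control 2 values was not tested.

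**Figure D5:**
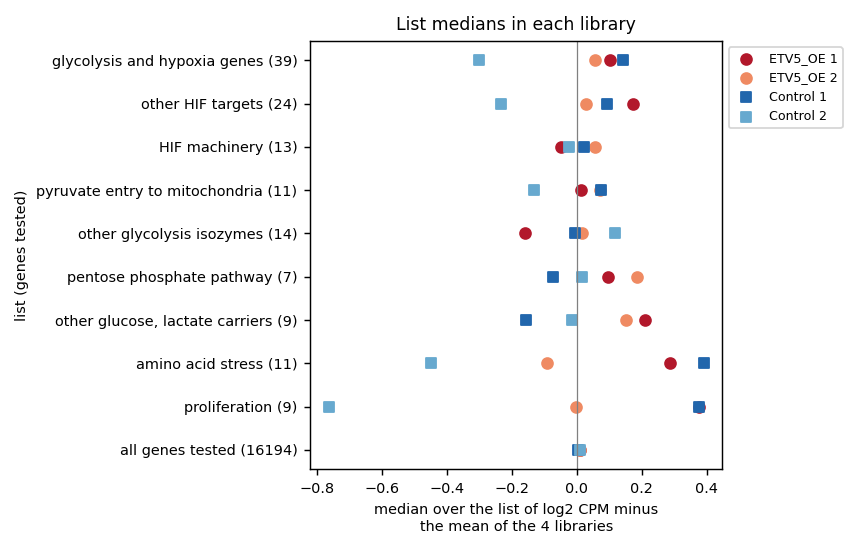
Median over each list of log2 CPM minus the mean of the 4 libraries (x axis), by list (rows, with the genes tested) and library (points). Control 2 lies lowest for the glycolysis and hypoxia genes, other HIF targets, pyruvate entry, amino acid stress and proliferation, and all libraries lie near 0 for all genes tested.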

How the data were processed

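RNA of 4 LNCaP libraries was sequenced as paired ends, per the labels' protocols. The tools HISAT2, StringTie and Trimmomatic and the build hg38 are named in the submitters' processing notes. Their roles and the strand setting are not given in the sources used here. Per the file headers, the authors deposited raw read counts and FPKM per gene. The authors also deposited group means and SDs, here found to be on a log2 scale, a signed fold score and unadjusted p-values, whose test is not given. Counts were fitted with edgeR 4.0.16 in R 4.3.3 on the whole table: filterByExpr with a minimum count of 10 kept 16194 of 17902 genes, with TMM scaling, a robust quasi-likelihood F test and Benjamini-Hochberg adjustment over all genes, called under 0.05. The SE is the size of the log2 fold change over the square root of F, and CPM values use TMM library sizes. The fit was tested on simulated data. DESeq2 1.42.0 and limma 3.58.1 (voom, and log2 FPKM values with pseudocounts of 1 and 0.1) were alternatives. Gene positions and promoters are from RefSeq GRCh38.p14, matched by gene ID. The genes and lists were chosen with earlier results of these data known. Values in each library are given for genes at an unadjusted p under 0.05, the 3 smallest p of each role, and the 8 widest control pairs at a mean of 1 CPM or more. Of each other list, called genes and up to 3 with the smallest p may be named; further genes with values were chosen after these were seen. Depth limits SLC2A3 and SLC16A3, which had few counts. A result on 1 gene is not reported here.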

Additional observations from a re-analysis of the deposited data

How the results depend on the processing

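The count of genes called over the whole table was 65 with edgeR and went to 223 with DESeq2, 38 with limma-voom, 22 without robust estimation, 13 with limma on FPKM values at a pseudocount of 1 and 12 at 0.1; leaving out each library in turn gave 0 to 238. The cause was not tested. Of the 39 genes, 0 were called with all libraries, 1 with DESeq2, and 0 to 3 with a library left out. Their median log2 fold change of 0.19 was 0.0027 to 0.47 with a library left out and 0.14 to 0.24 under the other settings. The median log2 ratio of Control 1 over Control 2 stayed between 0.37 and 0.38 with other scalings, deposited FPKM values and abundant genes only. Samples of the same number did not deviate together over all genes (correlation 0.02), which cannot show whether some genes were paired. The proliferation and amino acid stress lists had median log2 ratios of library 1 over 2 above 0 in both groups. Whether the number or the R suffix pairs samples is not known. With the number as a replicate block edgeR called 55 genes and 0 of the 39. No block by suffix was fitted. Log2 fold changes above 0 numbered 29 of the 39 with the block and with limma-voom, 24 with total counts only, and 26 in the main fit. Not every gene was followed by name under each setting. Of those followed, BNIP3L and PDK1 changed sign with the block (0.0096 and 0.086) and with limma-voom (0.0100 and 0.036). With a library left out, 19 of the 39 genes took both signs, running from -0.48 to 2.48 (ANKRD37), -0.34 to 1.13 (DDIT4), -0.17 to 0.13 (BNIP3), -0.22 to 0.24 (BNIP3L), -0.67 to 0.47 (HK2), -0.50 to 0.69 (PDK1), -0.11 to 0.028 (PFKFB2), -0.79 to 0.71 (SLC16A3), -0.81 to 0.034 (VEGFA), -0.093 to 0.35 (EGLN1), -0.22 to 0.54 (P4HA1), -0.29 to 0.91 (PFKFB4), -0.090 to 0.14 (HK1), -0.10 to 0.18 (ALDOC), -0.27 to 0.17 (SLC2A1), -0.23 to 0.26 (PDK3), -0.18 to 0.24 (P4HA2), -0.36 to 0.33 (KDM3A) and -0.23 to 0.064 (MXI1). ETV5 kept its direction but missed the threshold without ETV5_OE 1 or 2 (4.46 and 4.60, adjusted p = 0.0862 and 0.0674) and with limma at a pseudocount of 0.1 (4.02, adjusted p = 0.0724).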
